A study of Homo sapiens with 2 samples.

Results

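The genes described here are 10 genes of the neuronal microtubule cytoskeleton, TUBB3, TUBA1A, TUBB2A, TUBB2B, MAP2, MAP1B, MAPT, STMN1, STMN2 and DCX, out of 19881 genes that encode a protein and lie on an autosome, X or Y. They were taken by name, and every OTX2 binding peak that overlapped the gene record extended by 20 kb on each side was assigned to them, which gave 64 of 137330 peaks. OTX2 is a homeobox transcription factor that is highly expressed in Group 3 and Group 4 medulloblastoma (MB). The study used βIII-tubulin (TUBB3) and MAP2 as markers of neuronal differentiation after OTX2 knockdown, and OTX2 ChIP-Seq to ask which axon guidance genes OTX2 may regulate directly, so the microtubule genes were not the reason for the experiment.

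D283 is an established human MB cell line with features of both Group 3 and Group 4. The cells were grown as tumorspheres in ultra-low-attachment dishes, in a neural medium with N2, B27, EGF and bFGF, and were left untreated, so that OTX2 was present at the level of control cells. One group is the DNA precipitated with the OTX2 antibody ab21990 and the other is the input DNA, for which no antibody is listed. Each group is 1 library of 1 cell line, so no replicate error exists, no test between groups can be made, and the intervals given below cover counting error only. Removing duplicates left 61259377 of 84980793 ChIP fragments and 22521186 of 32292980 input fragments. No knockdown library enters the comparison, so the peaks describe where OTX2 was found and not what any gene did.

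Microtubules are hollow polymers of α- and β-tubulin dimers, and neurons use particular isotypes of both, with TUBA1A and TUBB2A, TUBB2B and TUBB3 prominent in developing neurons. Microtubule-associated proteins bind and stabilise the polymer, MAP2 mainly in dendrites, tau (encoded by MAPT) mainly in axons, and MAP1B in growing axons. Stathmins (STMN1, STMN2) bind free tubulin dimers and promote disassembly, and doublecortin (DCX) stabilises microtubules in migrating young neurons. Transcription factors can occupy DNA next to the transcription start site (TSS) or at distant sites, many of them in introns.

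OTX2 peaks lay near 9 of the 10 genes, and most of them lay inside the genes and away from the TSS. The TSS window, which runs from 5 kb before the TSS to 2 kb past it, was overlapped by a peak in 4 genes, TUBA1A, TUBB2A, MAP1B and STMN1 (40.0%, Wilson 95% interval 16.8 to 68.7), whereas 57.2% of all protein-coding genes had such a peak. The extended gene record held at least 1 peak in 9 genes (interval 59.6% to 98.2%), beside 88.1% of all genes. TUBB3 was the gene without a peak. A peak summit lay in the gene body of 7 genes, beside 54.3% of all genes, and a peak with a fold enrichment of 10 or more lay in the extended record of 4 genes, TUBB2A, MAP2, MAP1B and MAPT, beside 55.0% of all genes. The Wilson interval of the TSS share includes the share of all genes.

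**Figure D1:**
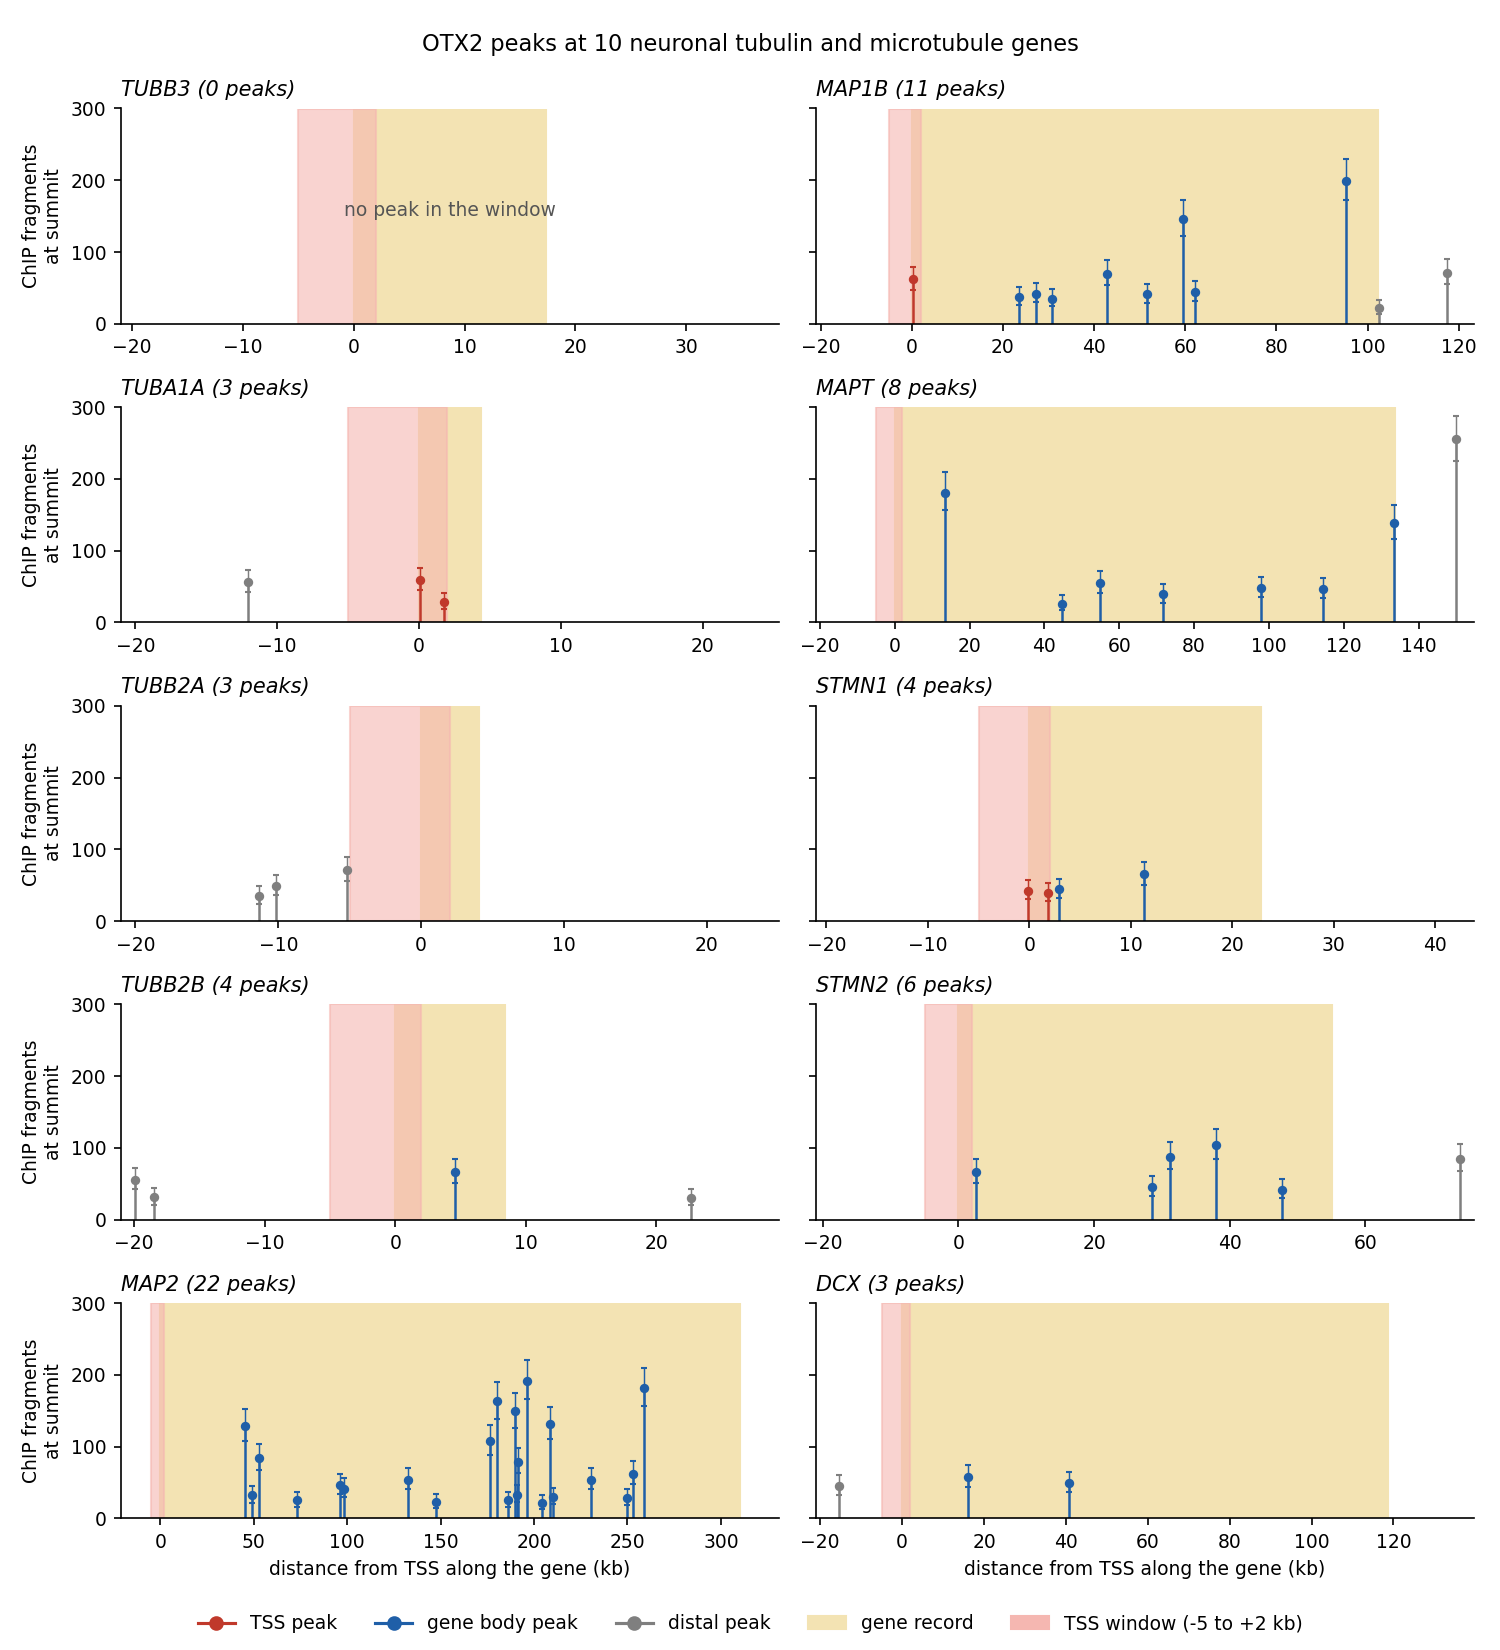
OTX2 peaks at each of the 10 genes, by the distance of the peak summit from the TSS along the gene (kb, horizontal) and by the number of ChIP fragments at the summit (vertical, with exact Poisson 95% intervals for counting error). Pink marks the TSS window, yellow the gene record, and red, blue and grey stems are TSS, gene body and distal peaks. TUBB3 had 0 peaks and MAP2 had 22, all of them in the gene body.

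Each peak was classed by its summit as a TSS peak (in that window), a gene body peak (elsewhere in the record) or a distal peak (in the 20 kb flanks). Of the 64 peaks, 5 were TSS peaks in 3 genes, 47 (73.4%) were gene body peaks and 12 were distal peaks of 7 genes. MAP2 alone gave 22 of the 47. Of all peaks in the list, 47.1% were gene body peaks and 10.6% TSS peaks of a protein-coding gene, but the whole list also holds peaks far from any gene, so these shares have another denominator. The summit lay in an intron of the canonical transcript for 47 peaks, in an untranslated exon for 3, outside the gene for 13, outside the canonical transcript but inside the record for 1, and in a coding exon for 0. The shares of these features over all peaks are not given here, so the 0 cannot be read as low. Near-identical tubulin copies share their coding exons most closely, and whether multiply mapping reads were removed is not given in the sources used here. That likeness concerns the tubulin genes alone, and most of the 64 peaks lay at other genes.

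The 3 TSS regions in which a peak overlapped an annotated promoter each held a hexamer that the study names as an OTX2 recognition sequence, TAATCC or TAATCT. Both strands were searched, so GGATTA and AGATTA are the same motifs read on the opposite strand, and the motifs share their first 5 bases and cannot lie at the same place. The stretches below were chosen because they show these motifs at the genes with a TSS peak. They are RefSeq promoter sequence of GRCh38.p14, 5′ to 3′ on the strand of the gene, with the motif in capitals.
STMN1, chr1:25906971-25907130, minus strand, the part of the RefSeq promoter inside the peak: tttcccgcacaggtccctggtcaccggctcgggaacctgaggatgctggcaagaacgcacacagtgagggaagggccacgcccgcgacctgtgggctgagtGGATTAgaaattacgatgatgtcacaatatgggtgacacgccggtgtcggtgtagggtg
MAP1B, chr5:72107446-72107475, plus strand: taccttcggagaTAATCCtttctcctgccg
TUBA1A, chr12:49189205-49189254, minus strand: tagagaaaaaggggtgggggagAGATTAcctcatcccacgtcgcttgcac

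The motif of MAP1B lay 20 bases from the peak summit and 17 bases upstream of the RefSeq start. That of STMN1 lay 130 bases from its summit and that of TUBA1A 191 bases from its summit. The RefSeq promoter table held 16 sequences of 300 bases (250 upstream and 50 downstream of a start) for 8 of the genes, with no entry for MAPT and STMN2. Of the 16, 3 overlapped a peak and 5 held a motif. Peak sequence outside these promoters was not searched, which leaves out all gene body and distal peaks. A motif was present in 12.8% of all 35116 promoter sequences, in 13.3% of the 10532 that overlapped a peak, in 12.5% of those that did not, and in 17.4% of the 5982 that held a peak summit. The remaining motifs lay in promoters without a peak, one at an internal start of MAP2 and one at a DCX start, and both stretches are shown for comparison with those at peaks.
MAP2, chr2:209579196-209579245, plus strand: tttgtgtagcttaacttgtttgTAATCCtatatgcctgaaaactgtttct
DCX, chrX:111411148-111411177, minus strand: aacttatttttcTAATCCtttttcccccca

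A match of 6 letters describes the sequence and not a binding event. The promoter sequences of TUBB3, TUBB2A and TUBB2B held 0 matches. For TUBB3, the gene with no peak, the 250 bases before the start of the canonical transcript are shown as the start of the marker gene that lacked one. They were 78.0% G and C.
TUBB3, chr16:89923092-89923341, plus strand: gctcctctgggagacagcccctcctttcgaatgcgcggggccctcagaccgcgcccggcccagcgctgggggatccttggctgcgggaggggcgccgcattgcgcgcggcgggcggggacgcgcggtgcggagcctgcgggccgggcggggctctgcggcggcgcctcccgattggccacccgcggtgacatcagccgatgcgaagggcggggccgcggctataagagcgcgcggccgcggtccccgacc

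Peaks are described by fragments, fold enrichment and local input. The number of ChIP fragments at the summit was read back from the deposited pileup, in which 1 fragment is worth 0.735. That value was taken as 2 times the ratio of input to ChIP fragments left after duplicate removal. Divided by it, the pileups came out as whole fragments. The fold enrichment is the ratio of pileup to local input after 1 is added to both. The local input is what pileup and fold enrichment imply, in pileup units, with a floor of 3.98. Over all peaks, the medians were 53 fragments, a fold enrichment of 6.10 and a local input of 5.0.

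TUBB3 encodes βIII-tubulin, the isotype used as a neuronal marker in the study. Its record (ENSG00000258947.8, GRCh38 chr16:89921392-89938761, plus strand) held 0 peaks, and 0 were found within 20 kb of it. None of its 16 annotated transcripts, with 11 distinct TSSs, had a peak in the TSS window. The nearest peaks lay 46.6 kb before the record, at 68 fragments (95% interval 52.8 to 86.2) and a fold of 10.2, and 34.4 kb beyond its end, at 30 fragments (20.2 to 42.8) and a fold of 4.61. The upstream one was 952 bp from the TSS of TCF25, so it sat at another gene. Among 1988 genes of like length (12405 to 18595 bp), 13.1% also had no peak. Only 15 peaks lay within 500 kb of the TUBB3 TSS, beside a median of 52 for all genes, which placed its neighbourhood at the 6.35th percentile. OTX2 binding under the calling threshold was not detectable here. The study also describes masking of blacklisted regions, and the deposited list does not show whether a peak was removed in that way.

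TUBA1A encodes an α-tubulin of post-mitotic neurons (ENSG00000167552.15, chr12:49184686-49189080, minus strand). The peak with its summit 44 bp downstream of the TSS, in untranslated exon 1 (chr12:49188680-49189326), held 59 fragments (44.9 to 76.1) at a fold enrichment of 8.26. A second TSS peak in intron 1, with its summit at 1783 bp, was lower, at 29 fragments (19.4 to 41.6), and its fold enrichment was 4.48. Their intervals do not overlap, so the peak at the start was the higher of the pair beyond counting error. Both also lay in the TSS window of TUBA1C, an α-tubulin gene on the opposite strand whose record starts inside that of TUBA1A. The peaks therefore cannot be assigned to one of the genes. This window was set by the outermost start of the TUBA1C record. In the 250 bases before the TUBA1A start, an exon of 1 TUBA1C transcript, TUBA1C-205, was annotated. The distal peak, 12045 bp upstream and inside TUBA1C, held 56 fragments but a fold enrichment of only 2.81, with a local input of 14.

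TUBB2A and TUBB2B are neighbouring, near-identical β-tubulin genes on the minus strand of chromosome 6, and their peaks were arranged differently. TUBB2A (ENSG00000137267.7, chr6:3153497-3157544) had 3 peaks, all upstream. The nearest one (chr6:3162281-3162947) held 71 fragments (55.5 to 89.6) at a fold enrichment of 10.7. Its summit was 5171 bp upstream, just past the 5 kb limit, and it entered the TSS count because its edge reached into the window. The others, 10128 and 11341 bp upstream, held 49 and 35 fragments at fold enrichments of 7.43 and 5.36. All 3 lay at the floor of the local input.

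TUBB2B (ENSG00000137285.11, chr6:3223324-3231730) had 4 peaks, and none overlapped the TSS window of the gene record. The canonical transcript starts 4077 bp further into the gene, however, and a peak in intron 1 (chr6:3226869-3227353) had its summit 500 bp downstream of that start. It held 66 fragments (51.0 to 84.0) at a fold enrichment of 4.95 and a local input of 9. This peak also lay in the TSS window of PSMG4, a proteasome assembly factor gene. The distal peaks held 30, 31 and 56 fragments with fold enrichments from 4.62 to 5.27, all below the median of all peaks. With the RefSeq record, which is shorter, 2 of the 4 peaks stayed in the window.

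MAP2, the dendritic microtubule-associated protein and the other differentiation marker of the study, held the most peaks. Its record (ENSG00000078018.22, chr2:209424047-209734147, plus strand, 310101 bp) had 22 peaks, all of them intronic gene body peaks, with 0 TSS and 0 distal peaks. The first summit lay 45.1 kb into the gene and the last 258.9 kb. Fragments ranged from 21 to 192 and the median fold enrichment was 7.60, and 7 peaks reached a fold enrichment of 10 or more. MAP2 is a long gene, and length bears on this count. The genes were divided by length into 10 classes of equal size. In the longest class the median was 18 peaks and 41.5% had at least 22, and its density of 0.628 peaks per 10 kb was at the 59.6th percentile.

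The MAP2 peaks were not spread evenly. Introns 3 and 4 held 10 of them within 33.8 kb, from 176.4 to 210.3 kb downstream of the TSS, and 4 of these 10 had a fold enrichment of at least 10. Of the genes in the longest class, 22.6% had at least 10 peaks in some stretch of 50 kb. The highest peak of this stretch (chr2:209619783-209620754, intron 3) held 192 fragments (166 to 221) at a fold enrichment of 23.1, higher than 95.7% of all peaks. A peak outside the stretch, in intron 7 (chr2:209682331-209683247), was nearly as high, at 181 fragments (156 to 209), and shared its fold enrichment of 23.1. In intron 1, the first peak of the gene held 129 fragments (108 to 153) at a fold enrichment of 19.2. At the other end, the lowest MAP2 peak held 21 fragments (13.0 to 32.1) at a fold enrichment of 2.93, so peaks of the same gene differed in height far beyond counting error. The intron 7 peak was also at -1647 bp from the start of a shorter MAP2 transcript without an annotated coding sequence, and 3 of the 19 MAP2 transcripts had a peak in their own TSS window.

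MAP1B, a microtubule-associated protein of growing axons, had both a TSS peak and the highest fold enrichment of the 64 peaks (ENSG00000131711.15, chr5:72107234-72209565, plus strand). The TSS peak (chr5:72107278-72108072) held 62 fragments (47.5 to 79.5) at a fold enrichment of 7.76, with its summit 8 bp past the start of the canonical transcript, in untranslated exon 1. It covers the MAP1B stretch printed above. The strongest peak was in intron 5 (chr5:72202244-72202792), 95308 bp into the gene, at 199 fragments (172 to 229). Its fold enrichment was 29.5, higher than 98.3% of all peaks. In intron 2 a further one (chr5:72166024-72166993) held 146 fragments (123 to 172) at a fold enrichment of 21.6. The intervals of both intronic peaks lie above that of the TSS peak. The other 6 gene body peaks held 35 to 70 fragments at fold enrichments of 2.97 to 6.01. Of 2 distal peaks, the higher one, with 71 fragments and a fold enrichment of 10.2, lay inside the neighbouring MRPS27, which encodes a mitochondrial ribosomal protein. The 11 peaks of MAP1B compare with a median of 9 in its length class, where 38.5% of genes had at least as many.

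MAPT encodes tau, the axonal microtubule-associated protein (ENSG00000186868.18, chr17:45894527-46028334, plus strand). It had 8 peaks and none in the TSS window, and its strongest ones lay at the ends of the gene. A peak in intron 1, 13323 bp from the TSS (chr17:45907593-45908174), held 181 fragments (156 to 209) at a fold enrichment of 13.4. A second one over untranslated exon 13, at the end of the gene (chr17:46027633-46028814), held 138 fragments (116 to 163) at a fold enrichment of 16.7. The distal peak beyond the end (chr17:46044327-46044861) held 255 fragments (225 to 288), the most of all 64 peaks and more than 97.0% of all peaks in the list. It lay inside KANSL1, a gene for a histone acetyltransferase complex subunit. Its fold enrichment of 14.8 stood lower in the list, at the 86.5th percentile, beside a local input of 11.7. The other 5 gene body peaks held 26 to 55 fragments at fold enrichments of 2.59 to 5.66. The local input at MAPT peaks ranged from 3.99 to 13.0, beside a median of 6.67 on chromosome 17, and its part in these values was not tested. In its length class, 58.5% of genes had at least 8 peaks.

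STMN1 encodes stathmin, which is abundant in proliferating cells as well as in young neurons (ENSG00000117632.23, chr1:25884181-25906991, minus strand). It had 4 peaks, and every one of its 9 annotated transcripts had a peak in the TSS window. The peak over the printed stretch (chr1:25906971-25907353) had its summit 168 bp before the TSS and held 42 fragments (30.3 to 56.8) at a fold enrichment of 6.29. A second TSS peak in intron 1 held 39 fragments (27.7 to 53.3), within counting error of the first, but its fold enrichment was 3.30, at a local input of 8. The pair was thus alike in fragments and unlike in fold enrichment. The gene body peaks held 44 and 65 fragments at fold enrichments of 5.04 and 8.13, and the higher one lay 11297 bp into the record, outside the canonical transcript.

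STMN2, a neuron-specific stathmin of growth cones, had 6 peaks of low fold enrichment (ENSG00000104435.14, chr8:79611117-79666158, plus strand). Most of them held more fragments than the median of all peaks, but those in introns 2 and 4 held fewer, at 46 and 42. No peak overlapped the TSS window of the record. The peak nearest to the TSS, 2593 bp downstream in intron 1, held 66 fragments (51.0 to 84.0) at a fold enrichment of 3.54. The one with most fragments, in intron 3 (chr8:79648673-79649325), held 104 (85.0 to 126) at a fold enrichment of 3.69, where the local input was 20.0. Over the 6 peaks the median was 75.5 fragments, above the median of all peaks, and the fold enrichments ranged from 2.77 to 4.38, all below it. The local input at these peaks ranged from 10.5 to 20.0, beside a median of 8.03 for peaks on chromosome 8 and 5.0 for all peaks. The part of the high input in the low fold enrichments was not tested beyond this arithmetic. The 91 peaks within 500 kb of STMN2 put its neighbourhood at the 93.0th percentile.

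**Figure D2:**
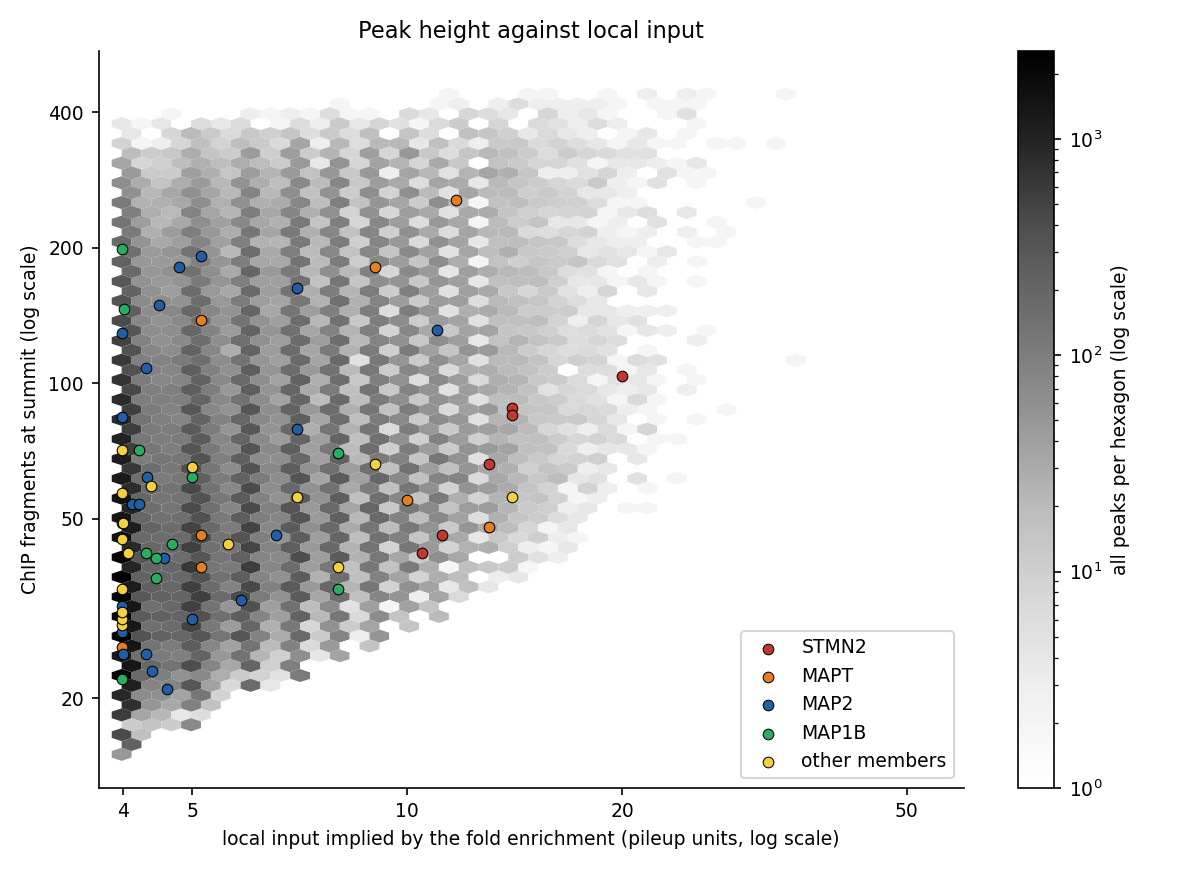
ChIP fragments at the summit (vertical, log scale) against the local input implied by the fold enrichment (horizontal, pileup units, log scale). Grey hexagons count all peaks and coloured points are the 64 peaks of the 10 genes. The 6 STMN2 peaks lie at a local input of 10.5 to 20.0, whereas the strongest MAP1B peak, with 199 fragments, lies at the floor.

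DCX, the doublecortin gene of migrating neurons, had few peaks for its length (ENSG00000077279.21, chrX:111293779-111412429, minus strand). Its 118651 bp held 2 gene body peaks in intron 3, and 1 distal peak lay 15393 bp upstream. They held 49, 57 and 45 fragments at fold enrichments of 7.41, 8.61 and 6.84, with overlapping intervals, and all were above the median fold enrichment of all peaks. In the same length class the median was 9 peaks and 87.5% of genes had at least 3. The density of 0.189 peaks per 10 kb put DCX at the 19.7th percentile, and 0 of its 13 transcripts had a peak in the TSS window. MAP7D2, MAP7D3 and HDAC6, other microtubule-system genes on chromosome X, had lower densities still, of 0.0666, 0.12 and 0.157. The low density was thus not particular to DCX, and the part of the chromosome in it was not tested. The local input at all 3 peaks was at or next to its floor, and the median over the peaks of chromosome X was 3.99.

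**Figure D3:**
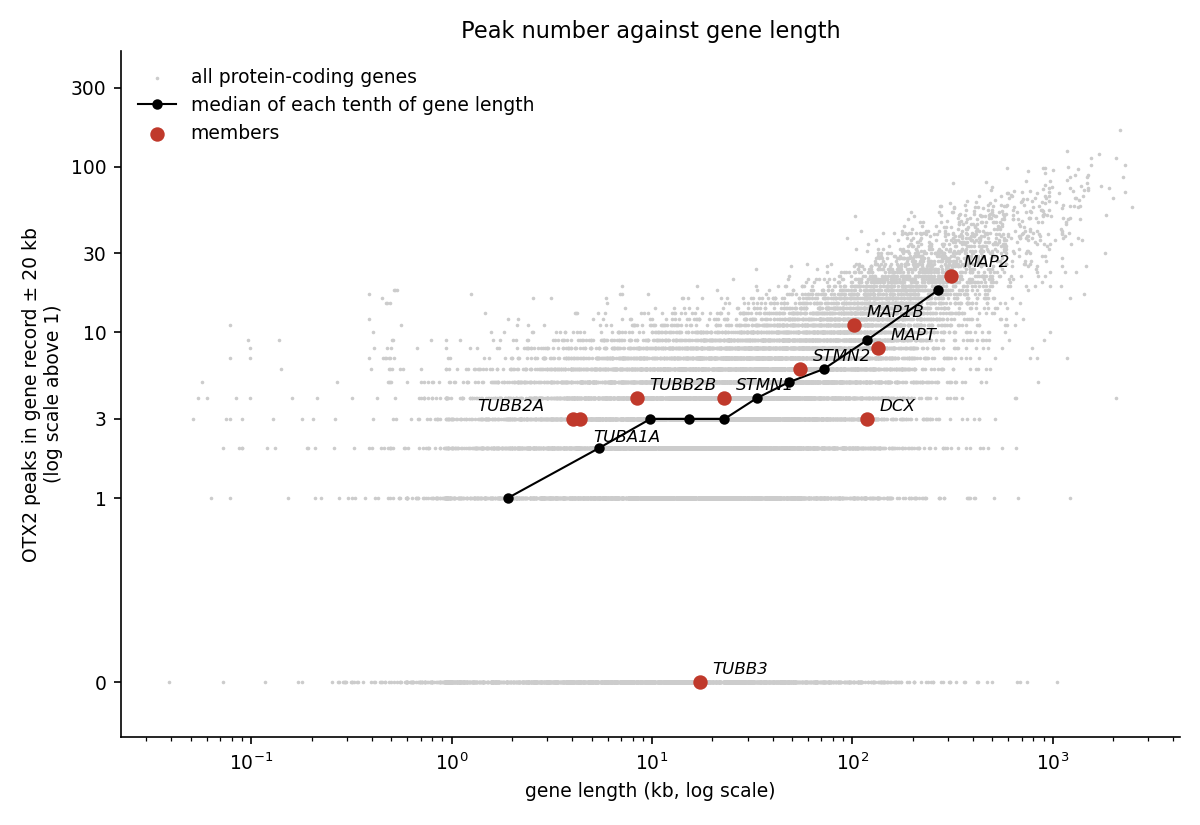
Number of OTX2 peaks in the gene record extended by 20 kb (vertical, log scale above 1) against gene length (kb, log scale). Grey points are all 19881 protein-coding genes, the black line joins the medians of the 10 length classes, and red points are the 10 genes. MAP2 with 22 peaks lies just above the median of 18 of its length class, and DCX with 3 peaks lies below the median of 9.

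Set against all protein-coding genes, the 10 genes were close to average in peak number per length. The median of their density percentiles was 60.1, and 7 of 10 were above the median density of 0.509 peaks per 10 kb. Counting peaks with a fold enrichment of at least 5 alone, 4 of 10 were above the median. TUBB2B was the densest, with 0.826 peaks per 10 kb at the 73.8th percentile, and TUBB3 and DCX were the least dense. The share of genes with a TSS peak in the length classes to which the 10 genes belong rose with length, except in the longest class. It was 51.0% in the class of TUBA1A and TUBB2A and 64.2% in that of MAP1B, MAPT and DCX. In the longest class, that of MAP2, it was 63.3%.

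The height of the peaks was also near that of the whole list. The 64 peaks had a median of 51.5 fragments and a median fold enrichment of 5.63, and 14 of them (21.9%) had a fold enrichment of at least 10, beside 26.4% of all peaks. Of these 14 peaks, 7 lay in MAP2, 3 each at MAP1B and MAPT, and 1 at TUBB2A. STMN2 and DCX had 0 such peaks among their 6 and 3, and the part of gene length in this was not tested.

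By class, the 5 TSS peaks held a median of 42 fragments at a median fold enrichment of 6.29, and 0 reached a fold enrichment of 10, beside 16.3% of the TSS peaks of all genes. The 47 gene body peaks held a median of 54 fragments at 5.66, and 11 reached 10, beside 27.0% of all gene body peaks. The 12 distal peaks held a median of 52.5 fragments at 5.31, and 3 reached 10, beside 28.1% of all peaks outside both classes. By fragments, TSS peaks were the lowest class in these genes and in the whole list, where their median was 45 and that of gene body peaks 54. By fold enrichment the order differed. The median of TSS peaks was the highest of the classes in these genes, whereas in the whole list it was the lowest, at 5.27 beside 6.18 for gene body peaks and 6.27 for the rest. With 5 TSS peaks, of fold enrichments from 3.30 to 8.26, neither order is firm.

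Other genes of the microtubule system were counted in the same way, as a list of 64 genes set by family. A TSS peak was present in 46 of the 64 (71.9%, Wilson 95% interval 59.9 to 81.4), beside 40.0% of the 10 neuronal genes and 57.2% of all genes. The intervals of the wider list and of the 10 genes overlap, and the share of the 10 genes depended on the definition of the start. With any annotated transcript start they rose to 8 of 10, beside 66.6% of all genes. The wider list is not compared under that definition here, so the order of the lists is not resolved. The lead of the wider list over all genes also depended on the peak threshold. Counting peaks with a fold enrichment of at least 5 alone, 25 of the 64 had one, a share close to the 38.5% of all genes. Neighbouring genes can share a peak, as TUBA1C and TUBA1A do in the records used. The median gene length of the wider list was 35448 bp, beside 27612 bp for all genes.

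Within the wider list, a TSS peak was found at 9 of 18 other tubulin genes (29.0% to 71.0%), 7 of 10 structural microtubule-associated proteins (39.7% to 89.2%), 1 of 2 other stathmins and 2 of 4 doublecortin-family genes. Proteins that act on the ends of the polymer, such as CLASP1 and CAMSAP3, had one in 9 of 10 genes (59.6% to 98.2%). All 5 severing enzymes and all 5 tubulin folding cofactors had one (56.6% to 100% each), as did 8 of 10 tubulin-modifying enzymes (49% to 94.3%). The intervals of all these families overlap, so their order is not resolved at these sizes.

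**Figure D4:**
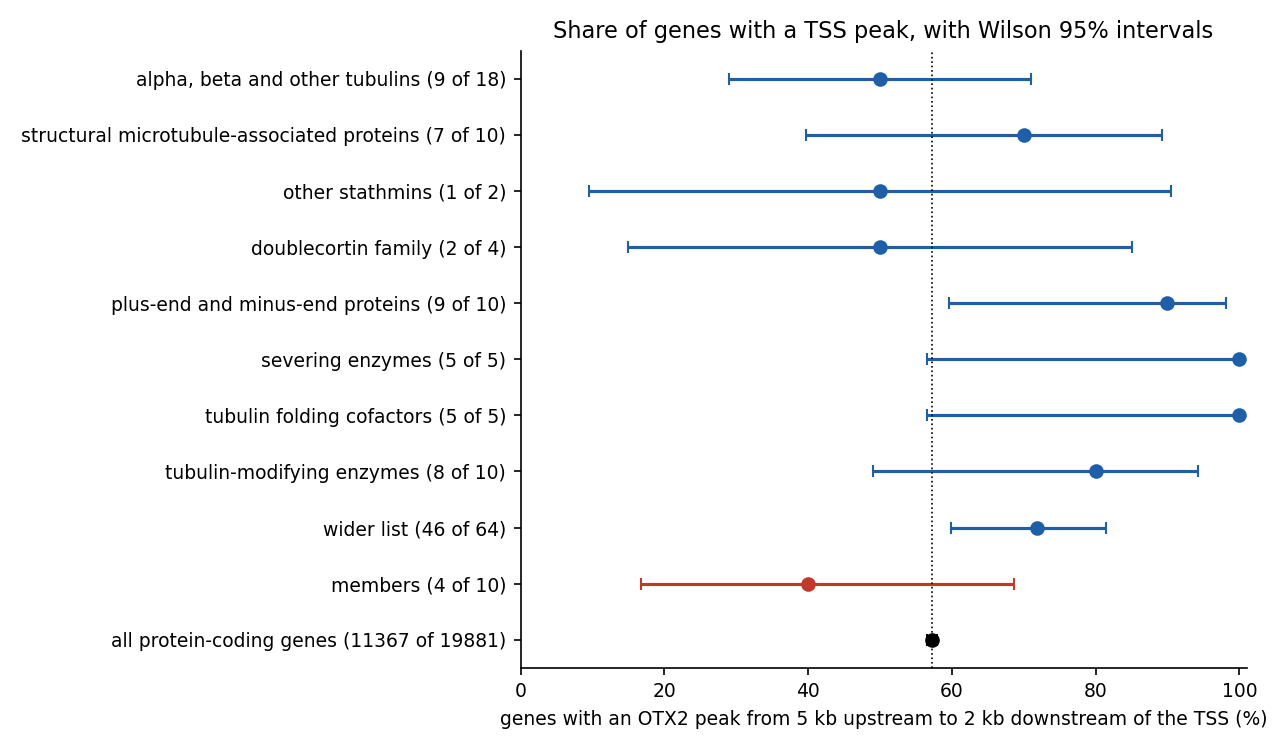
Share of genes with an OTX2 peak in the TSS window (%, horizontal) for families of the wider microtubule list (blue), the 10 genes (red) and all protein-coding genes (black, dotted line at 57.2%). Bars are Wilson 95% intervals. The 10 genes stand at 40.0% and the wider list at 71.9%.

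The TSS peak of highest fold enrichment in the wider list was that of DCLK3, a doublecortin-family kinase gene (chr3:36768206-36768897), with 169 fragments (144 to 196) at a fold enrichment of 25.1. It was followed by CLASP1, a plus-end stabiliser, with 94 fragments (76.0 to 115) at 14.1. TUBB4B, a widely expressed β-tubulin, had 144 fragments (121 to 170) at 10.7. TBCA, a β-tubulin folding cofactor, and CAMSAP3, a minus-end binder, had fold enrichments of 10.6 and 10.4. These 5 were picked as the highest among 46 genes with a TSS peak. In the 10 genes the highest TSS-class peak was that of TUBA1A at 8.26, and the TUBB2A peak at the edge of its window had 10.7. The highest values of lists of unlike size do not show which list had the stronger TSS peaks.

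The count of genes with a TSS peak depended on where the start was placed. With the TSS of the canonical transcript it was 5 of 10, since TUBB2B joined, and 58.5% of all genes had one. With any annotated transcript start it was 8 of 10, since MAP2, MAPT and STMN2 joined too, and 66.6% of all genes had one. With a summit required in the window it was 3 of 10, since TUBB2A dropped out, beside 56.3% of all genes. TUBB3 and DCX had no TSS peak under any of these definitions.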

How the data were processed

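OTX2 ChIP and input DNA of D283 tumorspheres were compared as 1 library each. Alignment by the authors was to GRCh38 (Bowtie2 2.2.4) and their peak caller was MACS2 2.1.0.20140616, set to a q-value cutoff of 0.05 and to duplicates counted once. In the deposited table, pileup is a signal, namely how many fragments cover the summit, scaled by the peak caller. Fold enrichment in that deposited table is the ratio of pileup to local input, both raised by 1. Whether the masking of blacklisted regions that the study describes was applied to this table could not be told from it. The deposited −log10 values are those of each peak's p-value and q-value. Of 137412 deposited peaks, 137330 lay on chromosomes 1 to 22, X and Y. Pileups were divided by 0.735 per fragment, and 100% came out whole within 0.01, so that exact Poisson 95% intervals could be given.

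Gene records were the GRCh38 positions that GENCODE 44 records beside its GRCh37 placement, and no coordinate was converted. The first base of the record served as TSS, and an overlap of 1 bp was enough for a peak to count. Promoter sequences were RefSeq's (GRCh38.p14). With 1 library per group no test was made. Matplotlib 3.10.9, statsmodels 0.14.6, scipy 1.17.1, numpy 2.4.6 and pandas 2.3.3 were used under Python 3.11.15, and window counting was tested on simulated peaks.

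The 10 genes and the wider list were chosen with earlier results of these data known. The genes named are the 10 genes, genes whose TSS window holds a summit of their peaks, and the 5 genes of highest fold enrichment near the TSS in the wider list. TCF25, MRPS27, KANSL1, MAP7D2, MAP7D3 and HDAC6 were named after their values were seen. Other windows, flanks, start sites and peak thresholds were tried as alternatives.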

Additional observations from a re-analysis of the deposited data

How the results depend on the processing

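No paired analysis was possible because each group is 1 library and the labels carry no replicate numbers. A count was taken to hold where it stayed within 1.5 times the value reported. The number of the 10 genes with a TSS peak stayed between 3 and 5 under a window of 1 kb on either side, the canonical start, a summit in the window and stricter peak thresholds, and rose from 4 to 8 with any transcript start. Peaks with a fold enrichment of at least 5 alone left 37 of 64 peaks, of which 3 were TSS, 27 gene body and 7 distal peaks, 14 peaks above the median fold enrichment of the peaks kept, 4 genes above the median density and 25 of 64 wider-list genes with a TSS peak. Under that threshold the 10 genes kept a count of 4 with a TSS peak, beside 38.5% of all genes. A flank of 50 kb gave 107 peaks, 55 of them distal, and a flank of 5 kb gave 2 distal peaks, which follows from the wider or narrower window. The input library had fewer fragments than the ChIP library, and this limits the precision of each fold enrichment.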
